A study of Mus musculus with 8 samples.

Results

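The TGF beta and BMP pathway was examined in the embryonic mouse outflow tract (OFT), the vessel-like segment through which the heart empties, as RNA of the genes that send, receive, transmit and restrain these signals. The 47 genes were picked by their known place in the pathway, as ligands, receptors, Smads, antagonists, Id targets and their close partners. The rule that names them uses no measured value, but the list was chosen with earlier results of these data known. Of them, 46 were among the 14608 genes of the deposited table, and *Grem1*, which encodes the BMP antagonist Gremlin 1, was not listed. The 4 control libraries carried the genotype label Control, with no further description. The 4 other libraries came from embryos heterozygous for both alleles, written *Mib1V943F/+ Gata6STOP/+* in the labels and called mutant-labelled here and mutant in the plots. *Mib1V943F* is a missense allele of the ubiquitin ligase that activates Notch ligands, and *Gata6STOP* is a null allele of the transcription factor GATA6. All embryos were at E11.5, and per the labels each library pooled the tissue of 3 individuals. Both alleles are germline alleles, so every cell type of the OFT carried them, and neither single heterozygote is among these 8 libraries.

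Ligands of the TGF beta superfamily bind a pair of type II receptors, which phosphorylate a pair of type I receptors, and these phosphorylate receptor-regulated Smads in the cytoplasm. SMAD2 and SMAD3 carry TGF beta and activin signals, SMAD1, SMAD5 and SMAD9 carry BMP signals, and both groups enter the nucleus with the shared partner SMAD4. In the OFT, BMP ligands from the myocardium and TGF beta ligands in the cushions act on endocardium and neural crest cells while the cushions fill with mesenchyme and the vessel is divided. Inhibitory Smads, Smurf ligases, secreted antagonists and nuclear co-repressors hold the signal back, and the Id genes are direct targets of the BMP Smads.

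Promoter sequence is shown for 3 members whose mutant-labelled values all lay above the control values, *Id4*, *Smad5* and *Tgfbr1*, since their windows held no annotated exon. The windows are the 250 bases before the RefSeq start on the coding strand, from the GRCm38.p6 assembly, at chr13:48260866-48261115 (plus strand) for *Id4*, chr13:56702760-56703009 (plus strand) for *Smad5* and chr4:47352972-47353221 (plus strand) for *Tgfbr1*. Capitals mark GGCGCC, a GC-rich element known to bind BMP Smads, and would mark GTCTG or its reverse complement CAGAC, the Smad-binding element. The windows of *Smad5* and *Tgfbr1* end at the GENCODE gene start, and that of *Id4* ends 112 bases before it.
Id4: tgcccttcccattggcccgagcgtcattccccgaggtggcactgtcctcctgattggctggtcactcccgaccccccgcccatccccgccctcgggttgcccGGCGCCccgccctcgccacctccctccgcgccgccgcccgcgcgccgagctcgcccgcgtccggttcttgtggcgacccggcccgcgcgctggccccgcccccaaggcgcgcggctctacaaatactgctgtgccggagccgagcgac
Smad5: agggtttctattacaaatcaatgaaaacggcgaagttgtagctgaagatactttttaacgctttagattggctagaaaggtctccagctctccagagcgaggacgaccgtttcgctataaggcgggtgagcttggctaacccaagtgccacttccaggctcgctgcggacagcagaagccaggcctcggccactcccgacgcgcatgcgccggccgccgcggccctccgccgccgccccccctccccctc
Tgfbr1: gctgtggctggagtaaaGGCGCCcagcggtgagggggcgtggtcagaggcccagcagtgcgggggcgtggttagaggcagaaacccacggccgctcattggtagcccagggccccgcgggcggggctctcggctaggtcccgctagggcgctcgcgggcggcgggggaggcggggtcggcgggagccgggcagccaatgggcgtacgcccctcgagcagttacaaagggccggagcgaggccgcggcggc
The element GGCGCC stood once in the window of *Id4* and once in that of *Tgfbr1*, its first base 148 and 233 bases before the start. Neither motif stood in the printed window of *Smad5*. Its other 2 RefSeq windows lie further on and extend past the GENCODE gene start, and 1 had GGCGCC and 1 had the Smad-binding element. The other window of *Tgfbr1* had the Smad-binding element once. RefSeq promoters were found for 34 of the 47 members, 46 windows in all, and GGCGCC stood in 12 of these windows (26.1%) against 9.59% of 32851 mouse promoter windows of the same length. The pair GTCTG and CAGAC stood in 22 of the 46 windows (47.8%) against 42.2% of all windows. These are matches of letters, on both strands, and say nothing of binding in this tissue. The shares were not matched for GC content, and overlapping windows of the same gene were counted separately.

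The table held read counts relative to library size (CPM), scaled by the trimmed mean of M-values (TMM), from 10669420 reads on listed genes in control replicate 2 to 30469165 in mutant-labelled replicate 3. The level of *Gata6* did not separate the groups, at 262 ± 18.5 CPM in control and 249 ± 36.1 CPM in mutant-labelled libraries (SD, n = 4), with a log2 difference of -0.08 (limma, adjusted p = 0.752), so in these libraries the groups rest on the labels. *Mib1*, whose allele is a missense one, differed by 0.07 on the log2 scale (limma, adjusted p = 0.746). Markers of the cells an OFT holds were present: cardiomyocyte, smooth muscle, endocardial, cushion mesenchyme and epicardial markers were all listed, whereas *Foxd3* of the neural crest and nerve list, *Fgf8* of the pharyngeal mesoderm list and *Epcam*, *Cdh1* and *Foxa2* of the pharyngeal epithelium list were not. With limma on log2(CPM + 0.5), 0 of 14608 genes passed an adjusted p of 0.05, and 1763 (12.1%) had an unadjusted p under 0.05. The quasi-likelihood test of edgeR on the recovered whole reads also called 0 genes and gave 1708 an unadjusted p under 0.05, its likelihood ratio test called 107 genes (0.732%), and DESeq2 called 192 of 13188 genes (1.46%).

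No member passed limma's threshold, and the smallest adjusted p among the 46 was 0.204, for *Bmp7*. *Bmp7* was also the only member called by the likelihood ratio test of edgeR or by DESeq2, with lower values in the mutant-labelled group, where these tests called 0.554% and 1.11% of genes lower. The unadjusted p was under 0.05 for 11 of the 46 members, 9 with higher and 2 with lower values in mutant-labelled libraries, where 12.1% of all genes reached it, 5.45% higher and 6.62% lower. The 9 higher members were the receptors *Tgfbr1* and *Bmpr1b*, the Smads *Smad4* and *Smad5*, the targets *Id1*, *Id2* and *Id4*, the latent TGF beta binding protein *Ltbp2* and the co-repressor *Skil*. The 2 lower members were the ligand *Bmp7* and the co-receptor *Tgfbr3*. The fold change was above 0 in 33 of the 46 members, against 50.4% of all genes, and the median log2 difference was 0.09 in the members and 0.00 over all genes. Values of the groups did not overlap in 6 members (7.1% of all genes), 5 of them higher (*Tgfbr1*, *Smad4*, *Smad5*, *Smurf2* and *Id4*; 3.2% of all genes) and 1 lower (*Bmp7*; 3.9% of all genes). Mutant-labelled replicate 2 had the highest or lowest value of all 8 libraries in 29 of the 46 members (63.0%, against 53.5% of all genes). In that library the lowest GC quartile of genes had a median deviation of 0.17 on the log2 scale from the mean of all libraries, and in control replicate 2 the same quartile had a median deviation of -0.18. After removal of that GC trend from each library, 34 of 46 members lay above 0 (49.8% of genes) with a median of 0.08, and 8 higher and 3 lower members had an unadjusted p under 0.05, against 4.66% and 6.52% of genes. Only 7 of these were among the first 11: *Tgfbr1*, *Smad5*, *Id2* and *Skil* were lost, and *Bmp1*, *Bmp5*, *Acvrl1* and *Id3* were gained.

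**Figure D1:**
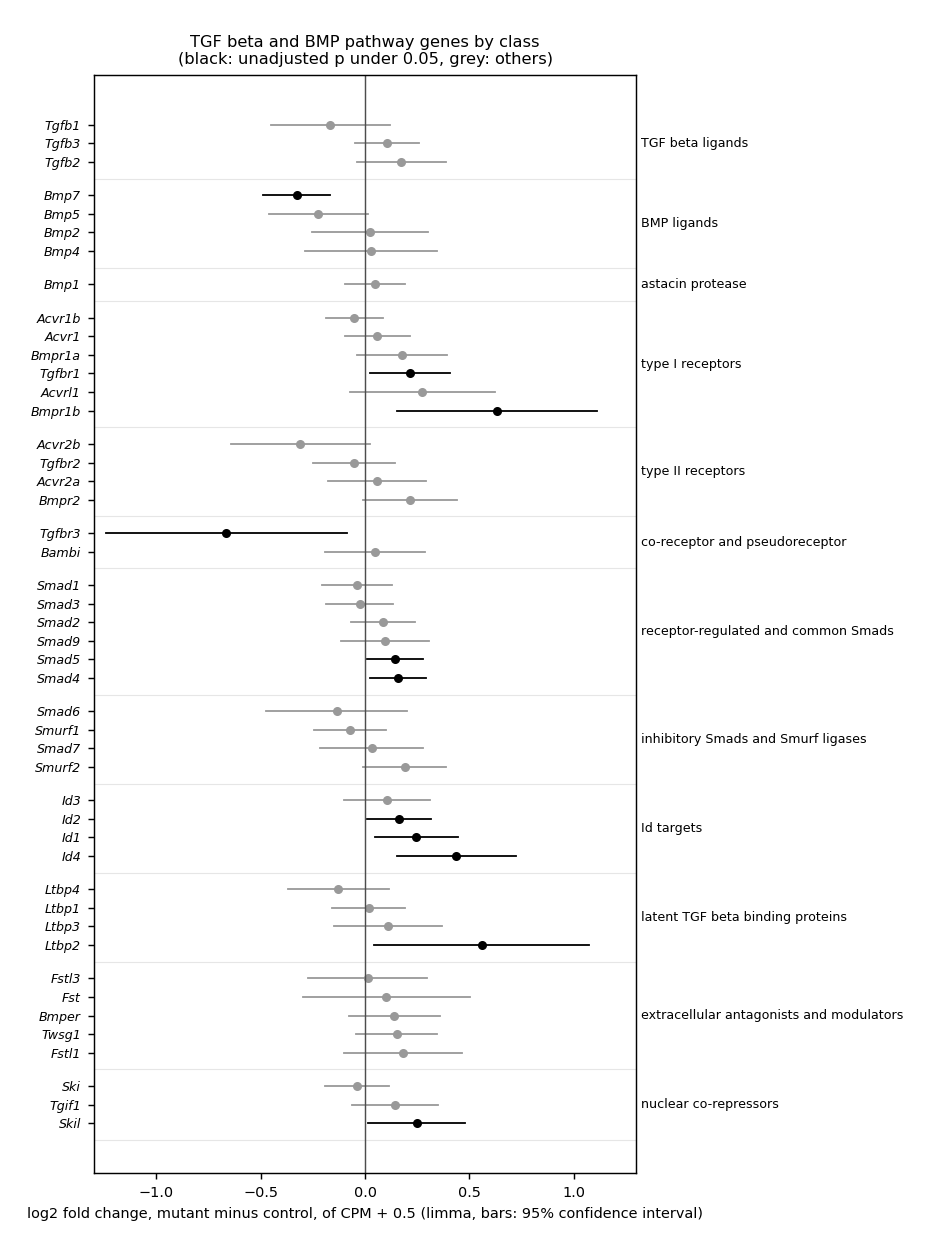
Log2 fold change of CPM + 0.5 in mutant-labelled against control libraries (horizontal axis) for the 46 listed members, grouped by class, as limma's estimate (point) with its 95% confidence interval (bar), n = 4 per group. The 11 members in black had an unadjusted p under 0.05: *Bmp7* and *Tgfbr3* lie left of 0, and the 9 others, among them 3 of the 4 Id genes, lie right of it.

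Among the ligands, the BMP gene *Bmp7* was the member that differed most clearly, and the values of the groups overlapped in the 3 TGF beta genes and the other 3 BMP genes. *Bmp7* (ENSMUSG00000008999, chr2:172868012-172940321, minus strand) encodes a BMP made by the OFT myocardium and other tissues, with overlapping roles with other BMPs in cushion formation. In the order of the replicate numbers, which holds for all values below, the control libraries gave 137, 140.1, 135 and 132 CPM, and the mutant-labelled ones gave 113, 94.5, 109 and 118 CPM. Every mutant-labelled value lay below every control value, and replicate 2 was the lowest of them. The means were 136 ± 3.56 and 109 ± 10 CPM (SD, n = 4), a log2 difference of -0.33 with a standard error of 0.07 in limma (unadjusted p = 0.000784, adjusted p = 0.204). The adjusted p was 0.029 in the likelihood ratio test and 0.00906 in DESeq2, and the exact permutation test over samples gave 0.0286, the smallest value that 4 against 4 allows. The likelihood ratio call was lost, with an adjusted p of up to 0.156, when control replicate 1, 2 or 3 or mutant-labelled replicate 1 or 3 was left out.

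Cardiomyocyte markers were also lower in the mutant-labelled libraries. All 10 of the list (*Tnnt2*, *Myh6*, *Myh7*, *Actc1*, *Ttn*, *Myl4*, *Myl7*, *Nppa*, *Ryr2* and *Tnni1*) had lower means in mutant-labelled libraries, 9 of them with an unadjusted p under 0.05 in limma, and none was at 0. Their summed level ran from 24764 to 29185 CPM in control and from 19538 to 23379 CPM in mutant-labelled libraries, and the order of the mutant-labelled libraries by this sum was the order by *Bmp7*. Among the control libraries *Bmp7* ran only from 132 to 140.1 CPM, and replicates 1 and 2 stood in the other order. Expressed per 1000 CPM of these markers, a scale added after values were seen, *Bmp7* ran from 4.70 to 5.32 in control libraries. In mutant-labelled libraries it ran from 4.84 to 5.25, a log2 difference of 0.02. *Bmp7* and the summed markers were each lower in every mutant-labelled library than in any control library. The ratio therefore cannot show what lowered *Bmp7*, which was not tested. In bulk tissue, fewer cells of a type and less RNA per cell cannot be told apart.

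**Figure D2:**
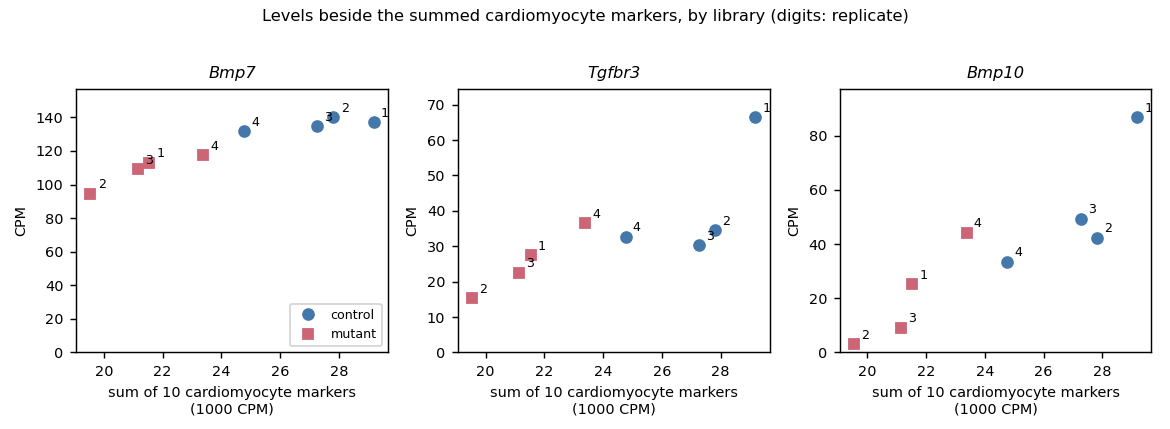
Level in CPM (vertical axis) of *Bmp7*, *Tgfbr3* and *Bmp10* against the summed level of 10 cardiomyocyte markers, in units of 1000 CPM (horizontal axis), 1 point per library, with the replicate number beside it, circles for control and squares for mutant-labelled libraries. The mutant-labelled libraries lie left of the control libraries in the summed markers, mutant-labelled replicate 2 is lowest on both axes in each panel, and control replicate 1 stands at 66.4 CPM in the panel of *Tgfbr3*.

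*Bmp4*, a ligand required for cushion formation and septation in the OFT, was the BMP gene with the highest level per length, at 61.5 CPM per kb of exon as the mean of all 8 libraries. It stood at 117, 153, 128 and 146 CPM in control libraries and reached 132, 101, 176 and 154 CPM in mutant-labelled ones. Its mutant-labelled values reached both below and above all control values, and the log2 difference was 0.03 with an interval of -0.29 to 0.34. *Bmp2*, which induces cushion transformation, differed by 0.02 at 10.1 CPM per kb. *Bmp5*, made by the myocardium, lay at 19.7 to 26.3 CPM in control and 17.2 to 21.8 CPM in mutant-labelled libraries, a log2 difference of -0.22 (limma, unadjusted p = 0.0625). After removal of the GC trend the log2 difference of *Bmp5* was -0.34 (limma, unadjusted p = 0.00672). A noncoding gene on the other strand covers 46.7% of the exon bases of *Bmp5*, and whether reads were counted by strand is not given in the sources used here.

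Per length, *Bmp4* and *Bmp7* together made up most of the RNA of the 4 BMP genes. *Bmp4* took 51.3% to 56.9% of their summed CPM per kb in control and 54.0% to 64.8% in mutant-labelled libraries. *Bmp7* took 28.5% to 33.7% in control and 22.6% to 28.2% in mutant-labelled libraries, so that all 4 mutant-labelled shares lay below the control shares. These shares are within a library and carry no test.

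*Tgfb2*, the TGF beta ligand most needed for OFT septation, was the highest of its 3 genes per length, at 33.7 CPM per kb. Its control values were 198, 176, 157 and 203 CPM and its mutant-labelled values 208, 179, 206 and 234 CPM. Mutant-labelled replicate 2 fell among the control values and the other 3 lay above them, with a log2 difference of 0.17 (limma, unadjusted p = 0.102). *Tgfb1*, expressed mainly in endothelial and blood cells, differed by -0.17, and *Tgfb3* by 0.10. *Tgfb2* made up 55.7% to 62.5% of the family's CPM per kb in control and 60.8% to 65.3% in mutant-labelled libraries. *Bmp1*, which encodes no BMP but a protease that cleaves procollagen and the BMP antagonist chordin, stood at 150.4, 156, 164 and 158 CPM in control and 163, 148, 174 and 166 CPM in mutant-labelled libraries, with a log2 difference of 0.05, or 0.13 after removal of the GC trend (limma, unadjusted p = 0.0292).

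**Figure D3:**
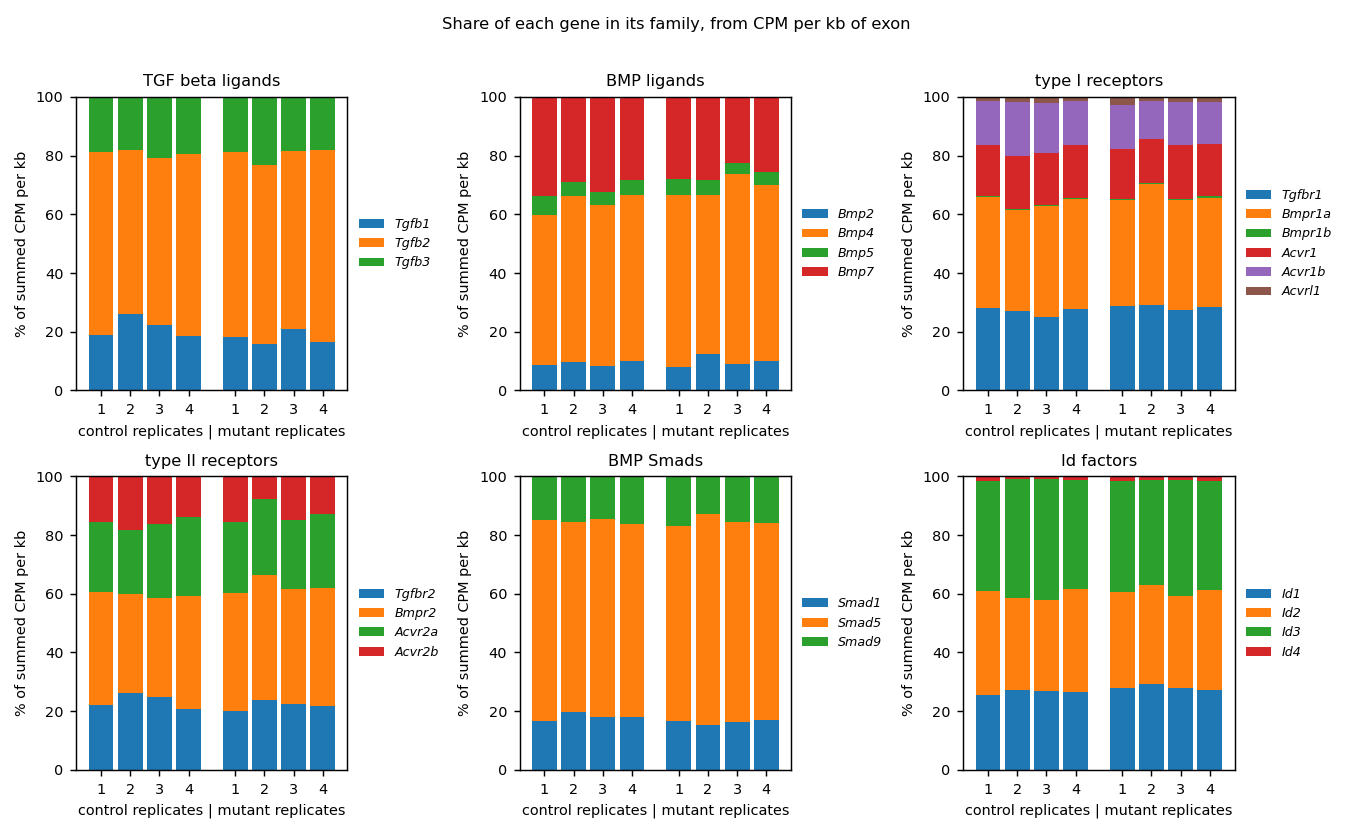
Share of each gene in the summed CPM per kb of exon of its family (vertical axis, percent) in each of the 8 libraries (horizontal axis, control replicates 1 to 4 on the left and mutant-labelled replicates 1 to 4 on the right of each panel), for 6 families. *Tgfb2*, *Bmp4* and *Smad5* hold the largest share of their families in all 8 libraries, and the share of *Bmp7* lies between 28.5% and 33.7% in control and between 22.6% and 28.2% in mutant-labelled libraries.

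Of the 6 type I receptors, 5 had a fold change above 0, and *Tgfbr1* and *Bmpr1b* had an unadjusted p under 0.05. *Tgfbr1* (ENSMUSG00000007613, chr4:47353222-47414931, plus strand), which encodes the TGF beta type I receptor ALK5 and whose promoter is printed above, stood at 161, 139, 133 and 163 CPM in control and at 164, 197, 164 and 165 CPM in mutant-labelled libraries. The groups did not overlap, but mutant-labelled replicates 1, 3 and 4 lay close above control replicate 4, and mutant-labelled replicate 2 stood apart. The log2 difference was 0.21 with a standard error of 0.09 (limma, unadjusted p = 0.0316, adjusted p = 0.388). It was 0.10 after removal of the GC trend, with 41.0% GC in the longest annotated transcript of the gene.

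*Bmpr1b*, a BMP type I receptor known for its role in cartilage, was scarce, at 1.73, 0.948, 1.61 and 2.62 CPM in control and 3.13, 3.09, 2.76 and 2.40 CPM in mutant-labelled libraries. The value of control replicate 2 rested on 10 reads, and control replicate 4 lay above mutant-labelled replicate 4. The log2 difference was 0.63 with a standard error of 0.22 (limma, unadjusted p = 0.0138, adjusted p = 0.329). *Bmpr1a*, the BMP receptor with the highest level per length in the class (33.4 CPM per kb), which the endocardium and myocardium need for cushion formation, stood at 212, 173, 195 and 215 CPM in control and at 201, 271, 218 and 213 CPM in mutant-labelled libraries. Its groups overlapped, with mutant-labelled replicate 2 far above the rest and a log2 difference of 0.18 (limma, unadjusted p = 0.0998). The log2 differences were 0.06 for *Acvr1*, the receptor ALK2, -0.05 for the activin receptor gene *Acvr1b*, and 0.27 for *Acvrl1*, the endothelial receptor ALK1, whose mutant-labelled replicate 1 stood at 10.5 CPM against 5.48 to 7.18 CPM in the other 7 libraries. After removal of the GC trend the log2 difference of *Acvrl1* was 0.36 (limma, unadjusted p = 0.0345).

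No type II receptor had an unadjusted p under 0.05. *Bmpr2*, which binds BMPs, was the highest of the 4 per length (9.68 CPM per kb), at 185, 138, 143 and 180.5 CPM in control and 172, 210.2, 179 and 186 CPM in mutant-labelled libraries. Control replicates 2 and 3 were low, and control replicates 1 and 4 lay among the mutant-labelled values (log2 difference 0.22, limma, unadjusted p = 0.0594). Its share of the CPM per kb of the 4 type II receptors ran from 33.5% to 38.5% in control and from 39.3% to 42.5% in mutant-labelled libraries, and after removal of the GC trend its log2 difference was 0.10. *Acvr2b*, an activin receptor that also binds BMPs, differed by -0.31, with mutant-labelled replicate 2 at 8.46 CPM and the other 7 libraries between 12.9 and 16.4 CPM. *Tgfbr2*, the TGF beta type II receptor, differed by -0.05, and *Acvr2a* by 0.06.

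*Tgfbr3*, or betaglycan, is a co-receptor that presents TGF beta 2 to its receptors. It stood at 66.4, 34.5, 30.3 and 32.7 CPM in control and at 27.5, 15.4, 22.5 and 36.6 CPM in mutant-labelled libraries. Control replicate 1 was high, and mutant-labelled replicate 4 lay above 3 of the control values. The log2 difference was -0.66 with a standard error of 0.26 (limma, unadjusted p = 0.0273, adjusted p = 0.378), and without control replicate 1 it was -0.41 with an unadjusted p of 0.0897 in limma. The mutant-labelled libraries followed the order of the summed cardiomyocyte markers. Per 1000 CPM of those markers, the scale added after values were seen, the log2 difference of *Tgfbr3* was -0.33. The exact permutation p of its CPM was 0.143. *Bambi*, a pseudoreceptor that lacks a kinase and damps BMP and TGF beta signals, stood at 117, 147, 169 and 139.7 CPM in control and 129.9, 166, 158 and 138 CPM in mutant-labelled libraries. Its groups overlapped over most of their range, with a log2 difference of 0.05.

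**Figure D4:**
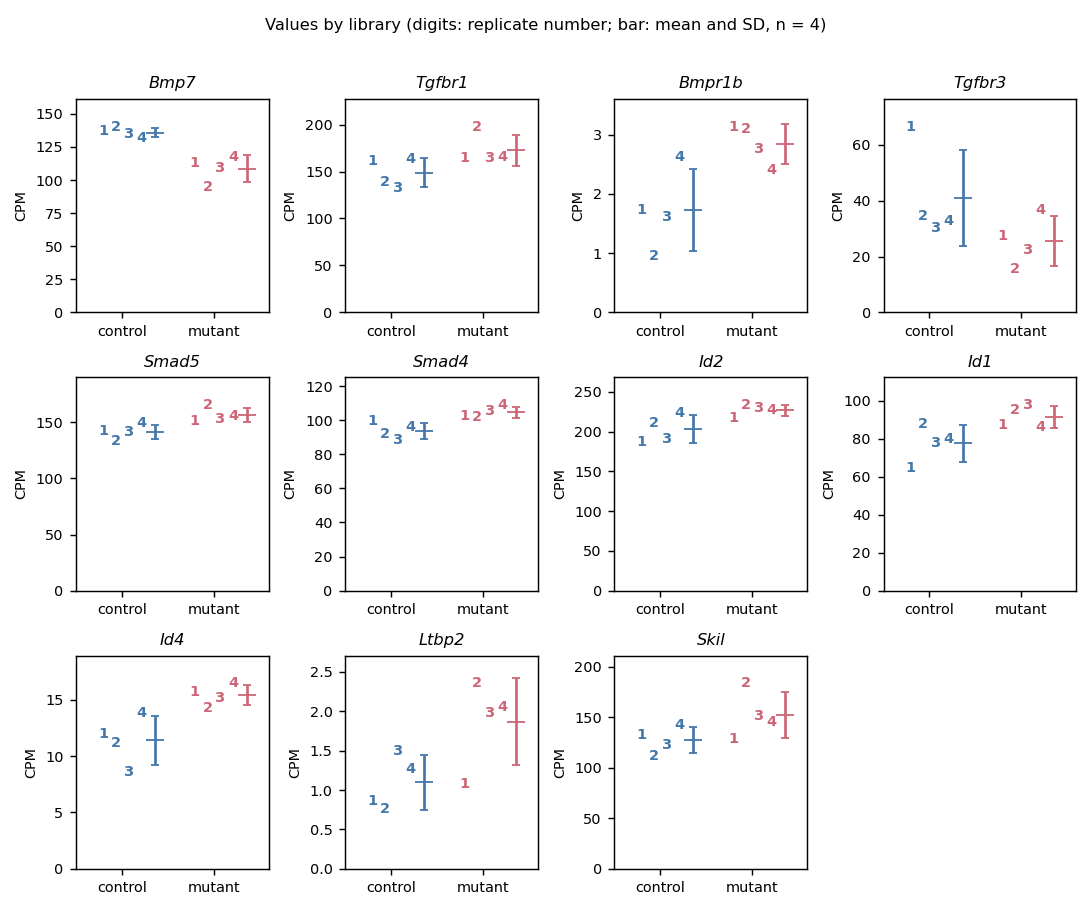
CPM (vertical axis, from 0) of the 11 members with an unadjusted p under 0.05 in limma, with each library drawn as its replicate number, control in blue and mutant-labelled in red, beside the mean and SD of 4 libraries. The groups do not overlap in *Bmp7*, *Tgfbr1*, *Smad4*, *Smad5* and *Id4*, and in *Tgfbr3* control replicate 1 stands at 66.4 CPM, above the 30.3 to 34.5 CPM of the other 3 control libraries.

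Among the Smads, the common partner *Smad4* and the BMP-specific *Smad5* were higher in each mutant-labelled library than in any control library. *Smad4*, the member of the class with the highest level per length (26.7 CPM per kb), stood at 99.4, 91.9, 88.2 and 96.0 CPM in control and at 103, 102, 105 and 109 CPM in mutant-labelled libraries. Its log2 difference was 0.16 with a standard error of 0.06 (limma, unadjusted p = 0.0265, adjusted p = 0.376), and it was also 0.16 after removal of the GC trend. *Smad5* (ENSMUSG00000021540, chr13:56703010-56742377, plus strand) stood at 142, 134, 141 and 149 CPM in control and at 152, 165, 153 and 156 CPM in mutant-labelled libraries. The log2 difference of *Smad5* was 0.14 with a standard error of 0.06 (limma, unadjusted p = 0.0383, adjusted p = 0.402), and 0.08 after removal of the GC trend. Of 19 other settings of the fit, the unadjusted p stayed under 0.05 in 14 for *Smad4* and in 9 for *Smad5*.

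The other receptor-regulated Smads did not separate the groups. The log2 difference was -0.04 for *Smad1* and 0.10 for *Smad9*, the other BMP Smads, and 0.09 for *Smad2* and -0.03 for *Smad3*, the TGF beta Smads. *Smad5* was the main BMP Smad at the RNA level, with 64.7% to 71.7% of the CPM per kb of *Smad1*, *Smad5* and *Smad9* in the 8 libraries. *Smad2* and *Smad3* were close in level per length, at 12.1 and 14.5 CPM per kb.

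Inhibitory Smads and the Smurf ligases, which direct receptors and Smads to degradation, held 1 gene whose groups did not overlap. *Smurf2* stood at 74.3 to 87.0 CPM in control and at 88.3 to 113.9 CPM in mutant-labelled libraries, with a log2 difference of 0.19 (limma, unadjusted p = 0.0581, exact permutation p = 0.0286). Control replicate 2 and mutant-labelled replicate 2 gave the outer values, and the other 6 libraries lay between 86.4 and 92.5 CPM. *Smurf1* differed by -0.07. *Smad6*, a BMP-induced inhibitor strongly expressed in the OFT endocardium, had the highest level per length of the class (59.3 CPM per kb), at 170.0, 251, 188 and 184 CPM in control and 175, 132, 229 and 193 CPM in mutant-labelled libraries. Its groups overlapped, with control replicate 2 highest and mutant-labelled replicate 2 lowest of all, and *Smad7*, the inhibitor of both branches, differed by 0.03.

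All 4 Id genes, which encode inhibitors of basic helix-loop-helix factors and are induced by BMP Smads, had higher means in mutant-labelled libraries, and *Id1*, *Id2* and *Id4* had an unadjusted p under 0.05. For other target genes the direction depended on the setting. Of 14 other listed target genes of the pathway, 9 had a fold change above 0, with a median log2 difference of 0.03. After removal of the GC trend, 13 of the 14 lay above 0, against 49.8% of all genes, with a median of 0.08. An unadjusted p under 0.05 in limma was reached by 1 of the 14 in either setting. *Smad6* and *Smad7* differed by -0.14 and 0.03. *Id4* (ENSMUSG00000021379, chr13:48261228-48266026, plus strand), whose promoter is printed above, stood at 12, 11.2, 8.55 and 13.8 CPM in control and at 15.7, 14.3, 15.2 and 16.4 CPM in mutant-labelled libraries. The groups did not overlap, and mutant-labelled replicate 2 was the closest to the highest control library. The log2 difference was 0.44 with a standard error of 0.13 (limma, unadjusted p = 0.00574, adjusted p = 0.27). Its unadjusted p was under 0.05 in all 19 other settings of the fit, up to 0.0184. Markers of some cells around the OFT also moved with the groups. The 3 listed pharyngeal mesoderm markers (*Isl1*, *Tbx1* and *Fgf10*) summed to 32.2 to 37.6 CPM in control and 48.0 to 68.4 CPM in mutant-labelled libraries. Of them, 2 were higher with an unadjusted p under 0.05 in limma. The 2 listed pharyngeal epithelium markers overlapped, at 69.1 to 89.0 and 75.2 to 85.0 CPM. The 5 listed neural crest and nerve markers summed to 48.0 to 56.4 and 56.7 to 65.6 CPM. Of these 5, *Elavl4* and *Stmn2*, genes of neurons, were the 2 with an unadjusted p under 0.05, both higher, whereas the neural crest gene *Sox10* differed by -0.43 and *Tubb3* by -0.08. The part of any of these cells in the level of *Id4* was not tested.

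*Id1* stood at 64.5, 87.7, 78.1 and 80 CPM in control and at 87.3, 95.2, 97.7 and 86.2 CPM in mutant-labelled libraries. Control replicate 1 was the lowest, and control replicate 2 lay among the mutant-labelled values. The log2 difference of *Id1* was 0.25 with a standard error of 0.09 (limma, unadjusted p = 0.0195, adjusted p = 0.351), and without control replicate 1 it was 0.16 with an unadjusted p of 0.0624. *Id2* stood at 188, 211, 190.4 and 224 CPM in control and at 217, 233, 229.9 and 227 CPM in mutant-labelled libraries. Control replicate 4 lay above mutant-labelled replicate 1, with a log2 difference of 0.16 (limma, unadjusted p = 0.0394, adjusted p = 0.402). It was 0.10 after removal of the GC trend (limma, unadjusted p = 0.142), and the unadjusted p of *Id2* stayed under 0.05 in 10 of 19 other settings. *Id3*, the highest of the 4 per length at 102 CPM per kb, stood at 147, 201, 186 and 173 CPM in control and at 182, 180.0, 213 and 182 CPM in mutant-labelled libraries. Its groups overlapped, with a log2 difference of 0.10 (limma, unadjusted p = 0.294), or 0.18 after removal of the GC trend (limma, unadjusted p = 0.0279).

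The composition of the Id family was nearly the same in both groups. *Id2* and *Id3* took 31.1% to 35.3% and 35.6% to 41.3% of its CPM per kb over the 8 libraries, *Id1* took 25.5% to 27.3% in control and 27.2% to 29.1% in mutant-labelled libraries, and *Id4* took at most 1.56%. No member of the family was called by limma, the likelihood ratio test or DESeq2 after adjustment over all genes.

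Latent TGF beta binding proteins tether the inactive ligand to the extracellular matrix. *Ltbp4*, the highest of the class per length (56.7 CPM per kb), stood at 341, 439, 397 and 351 CPM in control and at 308, 308, 421 and 367 CPM in mutant-labelled libraries, which overlapped. *Ltbp1*, which the OFT needs for septation, stood at 502 to 543 CPM in control and 460.3 to 589 CPM in mutant-labelled libraries, with a log2 difference of 0.02, and *Ltbp3* differed by 0.11. *Ltbp2*, which does not bind latent TGF beta and belongs to elastic fibres and microfibrils, was scarce, at 0.865, 0.759, 1.49 and 1.27 CPM in control and 1.07, 2.35, 1.98 and 2.06 CPM in mutant-labelled libraries. Its lowest value, in control replicate 2, rested on 8 reads, and mutant-labelled replicate 1 lay among the control values. The log2 difference was 0.56 with a standard error of 0.24 (limma, unadjusted p = 0.0357, adjusted p = 0.398), and a noncoding gene on the other strand shares 9.34% of the exon bases of *Ltbp2*.

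The 5 listed secreted antagonists and modulators all had a fold change above 0, between 0.01 and 0.18 on the log2 scale, and none had an unadjusted p under 0.05. *Fstl1*, a follistatin-like glycoprotein of mesenchyme that binds BMPs, was the most abundant of all members per length, at 326 CPM per kb. It stood at 1444, 1438, 1519.9 and 1552 CPM in control and at 1379, 2298, 1576 and 1623 CPM in mutant-labelled libraries. Mutant-labelled replicate 2 was far above the other 7 libraries, and without it the log2 difference was 0.03 instead of 0.18. In the same library the cushion mesenchyme markers summed to 1770 CPM, against 1063 to 1333 CPM in the other 7. Of these 6 markers, *Postn* (1172 CPM) and *Pdgfra* (324 CPM) were highest in that library. *Sox9* and *Prrx2* were lowest there, and *Twist1* and *Prrx1* lay among the values of the others. The summed epicardial markers were also highest there, at 491 CPM. The part of either list in the value of *Fstl1* was not tested. *Twsg1* and *Bmper*, secreted proteins that bind BMPs, differed by 0.15 and 0.14. *Fst*, the activin antagonist follistatin, lay between 3.39 and 6.48 CPM in all libraries and differed by 0.10, and *Fstl3* by 0.01. The gene *Prss57* on the other strand shares 47.3% of the exon bases of *Fstl3*.

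Of the nuclear co-repressors, *Skil*, or SnoN, which binds Smads and is itself a TGF beta target, had an unadjusted p under 0.05. It stood at 133, 112, 123 and 143 CPM in control and at 128, 184, 151 and 146 CPM in mutant-labelled libraries. Mutant-labelled replicate 2 was the highest, mutant-labelled replicate 1 lay among the control values, and the log2 difference was 0.25 with a standard error of 0.11 (limma, unadjusted p = 0.0379, adjusted p = 0.4). It was 0.13 after removal of the GC trend. *Ski*, its relative and the highest of the class per length (32.9 CPM per kb), stood at 179, 202, 183 and 178 CPM in control and at 175, 166, 190.3 and 191 CPM in mutant-labelled libraries, which overlapped. *Tgif1*, a homeobox co-repressor of SMAD2 and SMAD3, differed by 0.14.

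**Figure D5:**
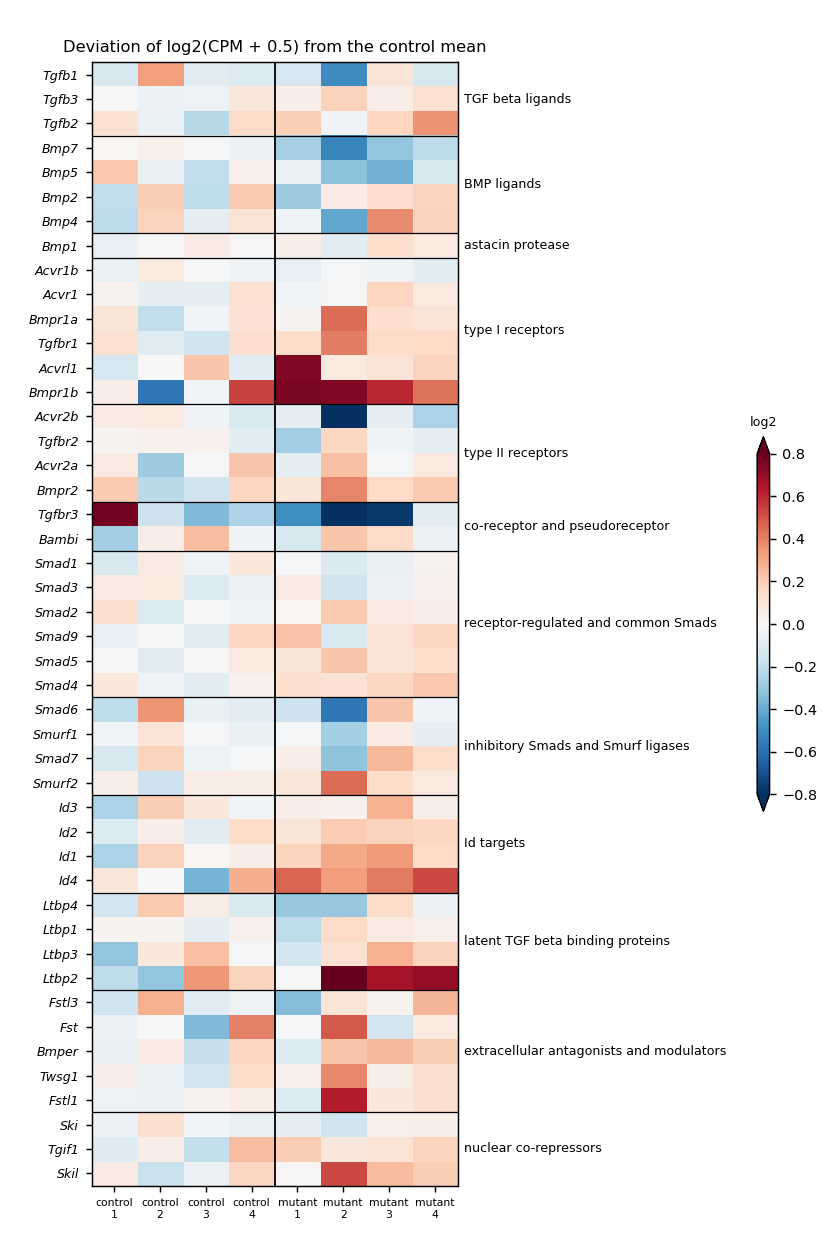
Deviation of log2(CPM + 0.5) from the control mean (colour, blue below and red above, cut at 0.8 in either direction) for the 46 listed members (rows, by class) in the 8 libraries (columns). In all 4 mutant-labelled columns 5 members are below 0 (*Bmp5*, *Bmp7*, *Acvr1b*, *Acvr2b* and *Tgfbr3*) and 18 are above 0, among them the 4 Id genes, while mutant-labelled replicate 2 holds the highest or lowest value of 29 rows.

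Beyond these members, 94 other genes of the pathway were listed, of which 67 were in the table, and 10 of the 67 had an unadjusted p under 0.05, 5 higher and 5 lower, where 12.1% of all genes reached it. None was called after adjustment by limma, the likelihood ratio test or DESeq2. *Pcsk6*, a convertase that processes ligands of the superfamily, stood at 58.8, 52.4, 47.0 and 55.1 CPM in control and at 40.9, 42.4, 46.4 and 44.6 CPM in mutant-labelled libraries. The groups of *Pcsk6* did not overlap, and its log2 difference was -0.28 (limma, adjusted p = 0.258). *Eng*, or endoglin, the endothelial co-receptor, differed by -0.23, and *Hjv*, the BMP co-receptor hemojuvelin, by -0.89 at 0.736 to 5.48 CPM.

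*Bmp10*, a ligand of the trabecular and atrial myocardium, had the largest difference of the 67, at 86.8, 42.4, 49.3 and 33.6 CPM in control and at 25.1, 3.13, 9.10 and 44.1 CPM in mutant-labelled libraries. Mutant-labelled replicate 4 lay among the control values, and the log2 difference was -1.83 with a standard error of 0.60 (limma, adjusted p = 0.308). Per 1000 CPM of the cardiomyocyte markers, the scale added after values were seen, the log2 difference of *Bmp10* was -1.55. The exact permutation p of its CPM was 0.0857. Of these markers, *Nppa* ranked the 8 libraries in the same order as *Bmp10*. *Nppa* stood at 157, 99.1, 122 and 65.9 CPM in control and at 61.9, 5.67, 8.68 and 109 CPM in mutant-labelled libraries. Its log2 difference was -2.09, and a link between the levels of these genes was not tested. Values were higher for *Gdf6*, a BMP family ligand (log2 difference 0.34), *Chrdl1*, a chordin-like antagonist (0.66, at 0.474 to 2.75 CPM), and *Trim33*, a ubiquitin ligase of SMAD4 (0.22). The adjusted p of these 3 genes in limma lay between 0.331 and 0.402.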

How the data were processed

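Poly(A) RNA was sequenced by the authors from strand-marking libraries, and reads were trimmed with cutadapt, quantified with RSEM on GRCm38 and normalised with edgeR. The deposited values are CPM scaled by TMM, already filtered on low genes by the authors, for 4 control and 4 mutant-labelled libraries, and 0 columns were left out. The study's methods give another layout of the pools than the labels, and the labels were followed. Each value was a whole number of reads times 1 constant per library (100% within 1e-06 reads), which gave the reads and depth, and 1 read equalled 0.0325 to 0.0948 CPM. Control replicate 2 was the shallowest library.

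In R 4.3.3, limma 3.58.1 (lmFit, eBayes with trend) was fitted to log2(CPM + 0.5) of both groups, and p-values were adjusted by Benjamini-Hochberg over 14608 genes, with a threshold of 0.05. Fold changes on this scale understate those of low genes. Single values were compared by an exact two-sided permutation test over the 70 relabellings. On the recovered reads, edgeR 4.0.16 (likelihood ratio and quasi-likelihood tests) and DESeq2 1.42.0 were alternatives. Levels per length divide CPM by the kb of exon in the annotation. The scripts were tested on simulated data. Nothing states that the libraries of a group came from separate litters, so p-values measure the spread between these pools.

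Values in every library were given for members with an unadjusted limma p under 0.05, or called by another test, and for the member of each class with the highest CPM per kb. Of the other pathway genes, those with the 8 smallest p were to be named, and 1 of them is not reported here. Members and lists were chosen with earlier results of these data known.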

Additional observations from a re-analysis of the deposited data

Results flagged for a closer look

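Single libraries stood apart from the 3 others of their group in 10 of 106 groups of 4 values that were examined, by a gap to the nearest library above Dixon's 95% critical value. Chance alone marks about 1 group in 20. Control replicate 2, the shallowest library, accounted for 2 of them: *Tgfb1* was highest there at 71.7 CPM and *Smurf2* lowest at 74.3 CPM. Mutant-labelled replicate 2 was highest for *Tgfbr1* at 197 CPM and for *Smurf2* at 113.9 CPM, so both outer values of *Smurf2* came from the replicates numbered 2. Control replicate 1 was highest for *Tgfbr3* at 66.4 CPM and for *Hjv* at 5.48 CPM, and it was also the library with the highest summed cardiomyocyte markers. The other 4 were *Acvrl1*, highest in mutant-labelled replicate 1 at 10.5 CPM, *Tgfbr2*, lowest in control replicate 4 at 44.6 CPM, *Id3*, highest in mutant-labelled replicate 3 at 213 CPM, and *Ltbp1*, lowest in control replicate 3 at 502 CPM. The cause of these gaps was not tested.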

How the results depend on the processing

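Over 19 other settings, *Bmp7* (log2 difference -0.37 to -0.26), *Bmpr1b* (0.44 to 0.81) and *Id4* (0.31 to 0.53) kept an unadjusted p under 0.05 in each setting that gave a value, and *Bmp7* was called only by the likelihood ratio test (-0.32) and DESeq2 (-0.33). All genes called numbered 0 in limma, 107 in the likelihood ratio test (26 higher, 81 lower) and 192 in DESeq2 (46 higher, 146 lower). The likelihood ratio count, refitted after seeing the data without each library, ran from 24 without control replicate 3 to 209 without control replicate 4, with 51 and 46 when control replicate 1 or 2 was left out and 38 when mutant-labelled replicate 3 was. The number of members with an unadjusted p under 0.05, 11 with all libraries, was 5 without mutant-labelled replicate 3, 6 without control replicate 2 or mutant-labelled replicate 2, 7 without control replicate 1 or 3, and 18 without mutant-labelled replicate 1, and that of the other pathway genes, 10 with all libraries, was 5 to 10. With the replicate block it was 7 members (4 higher, 3 lower), 6 of the 11 and *Bmp5*. Samples with the same number did not deviate together (correlations 0.03, -0.19, 0.03 and -0.05), so the numbers were not taken to pair them. Removal of the GC trend, alone or with the replicate block, left 6 other pathway genes and turned the sign of *Ltbp4* (0.0125), *Ski* (0.0335) and *Bambi* (-0.0257). The small differences of *Smad3* (0.0191) and *Acvr2a* (-0.069) also turned when the GC trend was removed. Leaving out 1 library turned small differences of *Bmp4* (-0.0881 to 0.176), *Smad6* (-0.255 to 0.0102), *Ski* (-0.0672 to 0.00278) and *Bambi* (-0.0432 to 0.132). The cause of these changes was not tested. Counting error is largest for *Bmpr1b*, *Ltbp2* and *Chrdl1*, which rest on few reads.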
